A study of Mus musculus with 16 samples.

Results

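The genes described here encode the nuclear subunits of respiratory complex I, the first enzyme of the mitochondrial respiratory chain. They were taken as every row of the deposited table whose gene symbol reads Nduf, then the letter a, b, c, s or v, then a number, so that assembly factors (Ndufaf genes) are not included. The rule matched 36 of 43437 identifiers and used no measured value. All 36 genes reached 1 FPKM in 4 or more libraries and were among the 11422 genes tested. FPKM counts the fragments of a gene relative to the length of its transcript and to the fragments of the whole library.

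Complex I oxidises NADH, passes the electrons through a flavin and a chain of iron-sulfur clusters to ubiquinone, and couples this to proton pumping across the inner mitochondrial membrane. Its peripheral arm stands in the matrix and holds the redox centres, and its membrane arm holds the pumps, whose core proteins are encoded by mitochondrial DNA. The nuclear genes supply the core of the peripheral arm and the accessory subunits that surround both arms. Cleavage-stage mouse embryos live largely on pyruvate, and their mitochondria are those inherited from the egg.

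RNA came from mouse embryos injected as zygotes with double-stranded RNA (dsRNA) and collected at the 8-cell stage after culture in KSOM medium. After acidic Tyrode solution had removed the zona pellucida, polyadenylated RNA was copied and amplified by Smart-seq2, a protocol for very small amounts of RNA. The dsRNA was directed against GFP, which embryos lack and which served as the control, against Tfap2c, which encodes an AP-2 transcription factor, against Tead4, which encodes a TEAD transcription factor, or against Tfap2c and Tead4 together. These groups are called GFP, Tfap2cKD, Tead4KD and DoubleKD here, and the 3 knockdown groups share the 4 GFP libraries as their control. Each of the 16 libraries was a pool of 10 embryos, and each group had libraries A1, A2, B1 and B2. The 2 crosses differed in the mothers, hybrids of C57BL/6J×CBA/J for the A libraries and of C57BL/6J×DBA/2J for the B libraries. Fathers were labelled C57BL/6J×DBA/2J for the first library listed of each cross, and the number after DBA/ rose from library to library in the others. The labels give no age of the mothers and do not say whether pools of the same group were cultured separately, so a p value here speaks of the spread between pools, which may be technical. In such bulk samples fewer cells of a type and less RNA per cell cannot be told apart, and dsRNA leaves part of the transcript in place.

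Tfap2c was listed at 43.2, 38.8, 28.3 and 32.4 FPKM in the GFP libraries and between 13.9 and 17.8 FPKM in the 8 libraries that received its dsRNA. Tead4 was listed at 58.4, 46.5, 47.7 and 41.8 FPKM in the GFP libraries, at 5.40 to 14.8 FPKM in the 8 libraries that received its dsRNA, and at 19.00, 25.9, 37.4 and 30.8 FPKM in Tfap2cKD, where it was also lower than in GFP (log2 change -0.79, limma adjusted p = 0.0192). All 8 markers of the 8-cell embryo were tested, whereas all 8 cumulus cell markers and all 5 sperm markers stayed under 1 FPKM in every library. Of 5 blood markers, Hba-a1 and Hba-a2 were tested and Hbb-bs and Hbb-bt were at 0 throughout. Summed FPKM of the blood list ran from 9.86 to 26.8 in GFP, 29.3 to 63.0 in Tfap2cKD, 20.3 to 50.9 in Tead4KD and 40.7 to 77.7 in DoubleKD. The summed 8-cell list ran from 8052 to 8920.1 FPKM in GFP, 5624 to 6899 in Tfap2cKD, 7683 to 8606 in Tead4KD and 5943 to 7175 in DoubleKD. Most of this sum was Dppa3, at 7779.9 to 8679.4 FPKM in GFP and 5509.3 to 6790.4 in Tfap2cKD. By gene, 6 of the 8 were lower than GFP in Tfap2cKD, 0 in Tead4KD and 5 in DoubleKD (limma adjusted p under 0.05), and none was higher. These are 75%, 0% and 62.5%, against 29.6%, 6.13% and 25.1% of all genes tested, and the list includes the targeted Tfap2c. The part of these lists in the results on complex I genes was not tested. Read counts were not used here, so absolute depth is unknown, and relative depth estimated from the steps between low values ran from 0.875 to 1.13 of the mean library.

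All 36 genes were found in the RefSeq annotation of GRCm38.p6 (mm10), on 15 chromosomes, with 2 of them on chromosome X. Promoter windows, from 250 bases before to 50 bases after a gene's start, were given for 32 of the 36 genes and made 34 windows. They were searched on both strands for motifs of factors known at genes of mitochondrial proteins and of the 2 targeted factor families. AAGATGGCG, the core of the YY1 motif, was present in 14.7% of the 34 windows, against 1.40% of all 32851 windows and 3.33% of the 9521 windows of tested genes. GCGCANGCG, for NRF1, was in 26.5% of the windows, against 6.25% of all windows and 14.4% of those of tested genes. CCGGAAG, for ETS factors including GABP, was in 11.8% of the windows, against 8.86% of all and 19.8% of those of tested genes. GCCNNNGGC, bound by AP-2 factors, was in 17.6% of the windows, against 16.6% of all and 24.2% of those of tested genes. GGAATG, for TEAD factors, was in 11.8% of the windows, against 14.7% of all and 11.96% of those of tested genes. The median GC content was 59.0% in the windows of the 36 genes and 60.3% in those of tested genes. A match is a description of the letters and not a binding site.

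The 5 YY1 matches are shown because they shared strand and place: each lay on the strand of its gene and began 22 to 35 bases after the start. The matched letters contain ATG, and whether this ATG begins the coding sequence was not examined. Shared strand and place may therefore belong to the coding sequence and not to a factor. Capitals mark the match, and the sequences are from RefSeq on GRCm38.p6, written from 5′ to 3′ on the gene's strand.
Ndufa9, chr6:126849099-126849123, strand -: tgtgggagAAGATGGCGgccgccgt
Ndufc1, chr3:51408917-51408941, strand -: tgcggaacAAGATGGCGccgtccgt
Ndufs4, chr13:114388045-114388067, strand -: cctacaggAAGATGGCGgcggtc
Ndufs6, chr13:73328433-73328457, strand -: tcaccggcAAGATGGCGgcggtgct
Ndufs7, chr10:80249465-80249489, strand +: ccgaggccAAGATGGCGgcgctggc
Ndufs7 encodes a core subunit that carries the last iron-sulfur cluster before ubiquinone, Ndufs4 and Ndufs6 encode accessory subunits of the peripheral arm, Ndufa9 a subunit where the arms join, and Ndufc1 a small subunit of the membrane arm. Of these 5 genes, none passed the test in a knockdown against GFP.

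The 250 bases before the start are shown for the 4 genes that passed the test in a knockdown against GFP, so that their upstream sequences can be set beside the values that follow. Capitals mark matches to the 5 motifs.
Ndufv2, chr17:66101560-66101809, strand -: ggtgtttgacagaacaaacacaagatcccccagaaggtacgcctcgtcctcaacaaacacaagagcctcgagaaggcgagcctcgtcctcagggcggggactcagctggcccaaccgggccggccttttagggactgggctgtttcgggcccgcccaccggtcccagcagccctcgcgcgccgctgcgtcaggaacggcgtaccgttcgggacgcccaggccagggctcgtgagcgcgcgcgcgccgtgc
Ndufv1, chr19:4012756-4013005, strand -: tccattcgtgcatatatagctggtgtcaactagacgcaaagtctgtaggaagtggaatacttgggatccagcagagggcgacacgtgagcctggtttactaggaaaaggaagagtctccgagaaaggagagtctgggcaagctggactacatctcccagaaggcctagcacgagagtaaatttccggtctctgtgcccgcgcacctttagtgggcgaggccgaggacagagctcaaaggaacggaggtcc
Ndufa8, chr2:36049339-36049588, strand -: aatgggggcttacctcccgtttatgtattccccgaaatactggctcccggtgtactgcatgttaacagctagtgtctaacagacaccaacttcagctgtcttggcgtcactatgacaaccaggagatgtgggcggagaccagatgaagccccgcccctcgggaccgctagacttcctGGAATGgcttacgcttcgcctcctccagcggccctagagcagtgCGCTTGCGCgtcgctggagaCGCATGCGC
Ndufb11, chrX:20617620-20617869, strand -: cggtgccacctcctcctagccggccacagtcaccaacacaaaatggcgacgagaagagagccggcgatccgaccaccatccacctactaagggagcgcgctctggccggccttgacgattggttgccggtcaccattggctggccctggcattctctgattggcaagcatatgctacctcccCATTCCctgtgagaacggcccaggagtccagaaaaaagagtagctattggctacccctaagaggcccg
The stretch of Ndufa8 held 2 NRF1 matches and 1 TEAD match, and that of Ndufb11 held 1 TEAD match. Neither stretch of the 2 core genes Ndufv1 and Ndufv2 held a match, and no AP-2 match was present in any of the 4 stretches, although the window of Ndufv1 held 1 AP-2 match after the start.

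Complex I transcripts were abundant in 8-cell embryos. Mean FPKM over the 16 libraries ran from 17.7 for Ndufs4 to 332 for Ndufa12, an 18.8-fold range with a median of 127 FPKM. All 36 genes lay above the median of the tested genes, which was 7.01 FPKM, 23 exceeded 100 FPKM, 8 were under 50 FPKM and none was at 0 in any library. FPKM is scaled to transcript length, so these are levels per length.

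**Figure D1:**
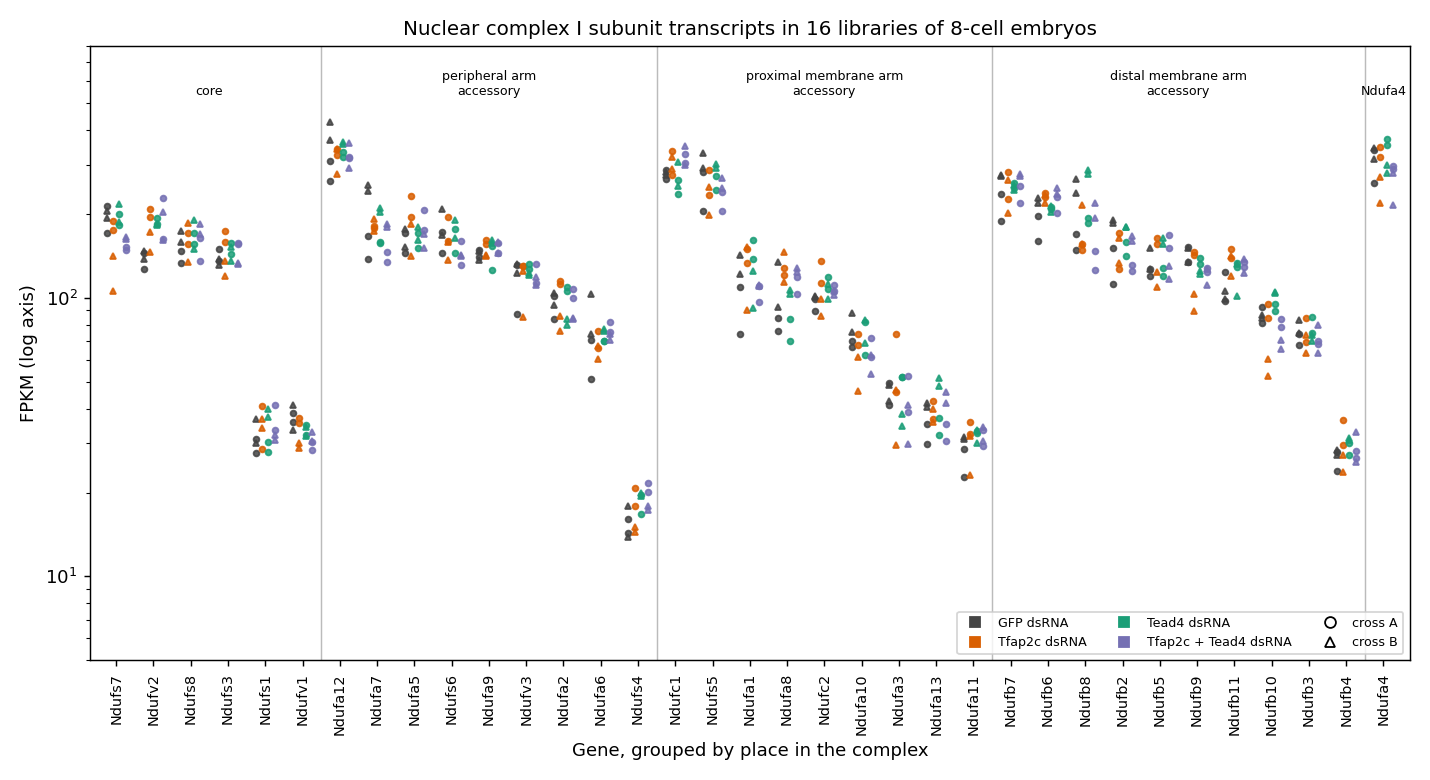
FPKM of 35 of the 36 nuclear complex I subunit genes in each of the 16 libraries, on a log axis, grouped by place in the complex, with colour for the dsRNA and symbol for the cross. Gene means run from 17.7 FPKM for Ndufs4 to 332 FPKM for Ndufa12. Among the genes shown, the highest library of a gene is from 1.28 times (Ndufa9) to 2.50 times (Ndufa3) its lowest.

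Subunits that are equally present in the assembled enzyme differed in transcript level within each part of it. Means of the 7 core genes had a median of 144 FPKM and reached 175 FPKM. Those of the 9 accessory genes of the peripheral arm ran from 17.7 to 332 FPKM with a median of 148. In the membrane arm, the 9 genes of the proximal part ran from 30.9 to 292 FPKM with a median of 105, and the 10 genes of the distal part from 28.6 to 248 FPKM with a median of 133. Ndufa4, whose protein has since been assigned to cytochrome c oxidase, had a mean of 299.8 FPKM.

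Ndufa12, an accessory subunit of the peripheral arm, was listed at 310.1, 263, 369 and 426 FPKM in the GFP libraries A1, A2, B1 and B2, the order used throughout. Its values were 342, 325, 277 and 341 in Tfap2cKD, 319, 334, 356 and 361 in Tead4KD and 317, 319, 292 and 360.1 in DoubleKD. The groups overlapped, and the spread was largest within GFP. Ndufa4 was listed at 338, 259, 314 and 343 in GFP, 348, 319, 219 and 271 in Tfap2cKD, 352, 372, 280.5 and 299 in Tead4KD and 296, 289.9, 215 and 281 in DoubleKD. Its lowest values were those of library B1 of Tfap2cKD and of DoubleKD. Ndufc1, a small subunit of the membrane arm, had 288, 266, 275 and 282 FPKM in GFP, 335, 275, 289 and 319.9 in Tfap2cKD, 263, 236, 307 and 252 in Tead4KD and 304, 329, 349.8 and 300.2 in DoubleKD. It had the lowest coefficient of variation of the 36 genes over the GFP libraries, 3.32%, and all 4 DoubleKD values lay above all 4 GFP values.

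At the other end of the order, Ndufs4, an accessory subunit whose loss causes Leigh syndrome, had 14.3, 16.1, 13.8 and 17.9 FPKM in GFP, 20.7, 17.9, 14.4 and 15.1 in Tfap2cKD, 16.8, 19.6, 19.96 and 19.5 in Tead4KD and 21.6, 20.1, 17.4 and 17.8 in DoubleKD. Ndufb4, a distal membrane arm subunit, had 27.9, 23.9, 27.2 and 28.4 FPKM in GFP, 36.3, 29.6, 23.8 and 27.3 in Tfap2cKD, 27.2, 30.2, 30.9 and 31.5 in Tead4KD and 26.6, 28.1, 25.6 and 33.1 in DoubleKD. Every library of Ndufs4 lay below every library of Ndufb4.

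Over the GFP libraries the coefficient of variation ranged from 3.32% to 29.0%, with a median of 12.1%. It was highest for Ndufa6 and Ndufa7, both accessory subunits of the peripheral arm. Ndufa6 was listed at 70.2, 50.9, 73.95 and 103 FPKM in GFP, 76.2, 66.2, 60.1 and 66.8 in Tfap2cKD, 70.1, 69.8, 76.05 and 77.5 in Tead4KD and 75.6, 81.8, 74.3 and 70.5 in DoubleKD. Its GFP values held both the lowest and the highest of the 16.

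Against GFP, changes of the complex I genes averaged over the 2 crosses were small in each knockdown. In the fit over both crosses, none of the 36 had a change of more than 0.5 on the log2 scale in any of the 3 knockdowns, whereas 21.9% of the 3277 other tested genes with means in the same range did so in Tfap2cKD, 8.15% in Tead4KD and 19.5% in DoubleKD. The median size of change, whatever its sign, was 0.12 for the 36 genes and 0.23 for the genes of like level in Tfap2cKD. It was 0.08 against 0.14 in Tead4KD and 0.18 against 0.22 in DoubleKD. The spread between libraries of the same group and cross was alike, with a median SD of 0.15 on the log2 scale in both sets. These are descriptions of the 2 sets and were not tested. Within a single cross, a change rests on 2 libraries a group, and some of the 36 lay beyond 0.5. These were 3 (cross A) and 4 (cross B) in Tfap2cKD, 1 (cross A) in Tead4KD and 1 (cross A) in DoubleKD. Opposite changes in the 2 crosses cancel in the average. In Tfap2cKD the median change of the 36 was 0.23 for cross A alone and -0.25 for cross B alone. Sizes of change within a cross are not given for the genes of like level. Whether the 36 changed less than those genes within a cross was not tested. Here and in what follows, changes are differences of log2(FPKM + 1), which understate the changes of low genes.

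**Figure D2:**
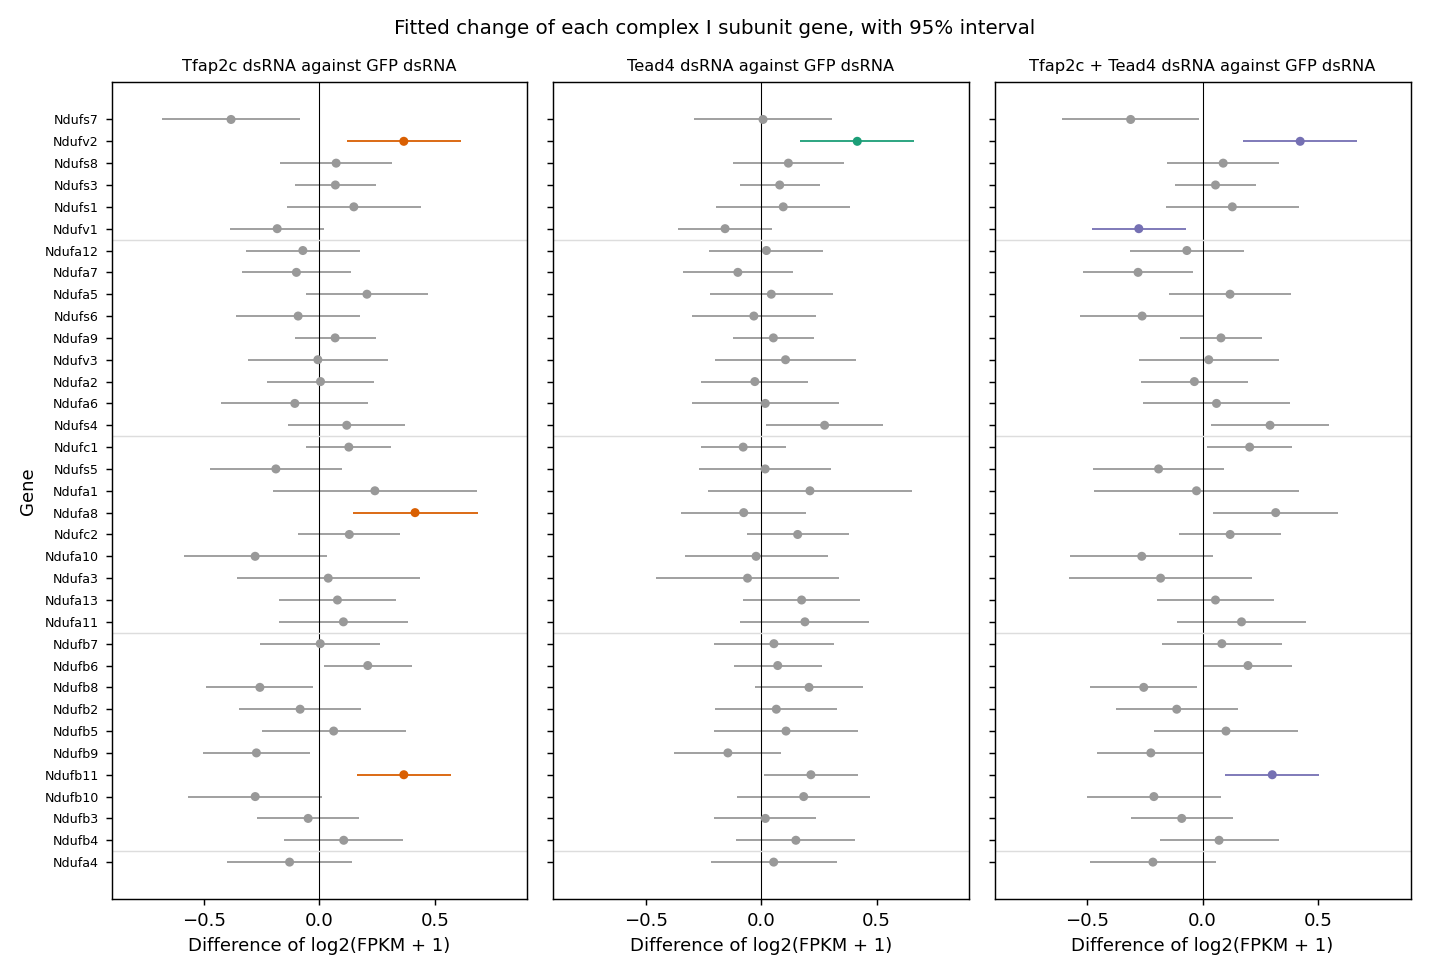
Fitted differences of log2(FPKM + 1) of 35 of the 36 genes between each knockdown and GFP, with 95% intervals, in order of place in the complex and level, and in colour where the limma adjusted p was under 0.05. All points, which average over the crosses, lie within 0.5 of 0, and the coloured ones are 3 genes in Tfap2cKD, 1 in Tead4KD and 3 in DoubleKD.

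In Tfap2cKD, 3 of the 36 genes rose and none fell: the core gene Ndufv2, the proximal membrane arm gene Ndufa8 and the distal membrane arm gene Ndufb11. This is 8.33% of the genes, against 29.6% of all 11422 genes tested, of which 16.3% rose and 13.2% fell (limma, Benjamini-Hochberg adjusted p under 0.05). At an unadjusted p under 0.05, 7 of the 36 passed (19.4%), against 40.1% of all genes. The median log2 change was 0.02 for the 36 genes and 0.06 for all genes. Above 0 were 20 of the 36 genes and 6498 of all 11422. Rescaling libraries by median ratios turned the median of the 36 to -0.06, with 1 gene higher and 4 lower, and of all genes 12.9% rose and 16.5% fell. Quantile normalization gave 4 higher and 1 lower, and of all genes 15.1% rose and 13.9% fell. The count was 1 without GFP library A1 or without Tfap2cKD library B2. By place, 1 of 7 core, 0 of 9 peripheral accessory, 1 of 9 proximal and 1 of 10 distal membrane arm genes passed.

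Ndufv2 (chr17:66078795-66101559, GRCm38.p6) encodes an iron-sulfur subunit of the NADH-oxidising end of the enzyme. It was listed at 144, 126, 138 and 148 FPKM in GFP and at 208, 195, 146 and 172 FPKM in Tfap2cKD, and 3 of the 4 Tfap2cKD values lay above all GFP values. The means were 139 ± 9.30 and 181 ± 27.3 FPKM (SD, n = 4 libraries each). The log2 change was 0.37 ± 0.12 (SE), with a limma adjusted p of 0.0276. Leaving out single libraries moved this p from 0.0107 to 0.0881, and the call was lost without GFP library A1 or A2 and without Tfap2cKD library A1, A2 or B2. It was also lost under median-ratio rescaling (0.0676) and with no filter (0.063). In the annotation, Ndufv2 overlaps Ankrd12 by 10 bases and the small nuclear RNA gene Gm23264 by 107 bases.

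Ndufb11 (chrX:20615326-20617619, GRCm38.p6) is X-linked and encodes a distal membrane arm subunit. Its values were 123, 97.7, 98.9 and 105 FPKM in GFP and 149, 138, 119.8 and 141 FPKM in Tfap2cKD, where only the Tfap2cKD library B1 fell within the GFP range. Means were 106 ± 11.8 and 137 ± 12.4 FPKM (SD, n = 4). The log2 change was 0.37 ± 0.09 (SE, limma adjusted p = 0.00963). Of the 7 calls of complex I genes against GFP, this was the only one kept under every alternative run, with p from 0.00545 to 0.036 when single libraries were left out. Ndufb11 shares 263 bases with Rbm10 in the annotation, and whether counting used the strand is not given in the sources used here, so reads from these 2 genes may not be told apart.

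Ndufa8 (chr2:36036324-36049338, GRCm38.p6) encodes a subunit on the outer face of the membrane arm. It was listed at 84.5, 75.8, 92.8 and 134 FPKM in GFP and 120.3, 127, 114 and 146 FPKM in Tfap2cKD, and GFP library B2 lay inside the Tfap2cKD range. Means were 96.8 ± 25.9 and 127 ± 13.7 FPKM (SD, n = 4). The log2 change was 0.41 ± 0.13 (SE, limma adjusted p = 0.0234). Without single libraries the p ranged from 0.00319 to 0.0727, with the call lost without GFP library A1, A2 or B1 or Tfap2cKD library A1, A2 or B2. It was lost too with no term for cross (0.0938), under median-ratio rescaling (0.0512) and with no filter (0.0552). Its change within cross A was 0.62 and within cross B 0.20.

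**Figure D3:**
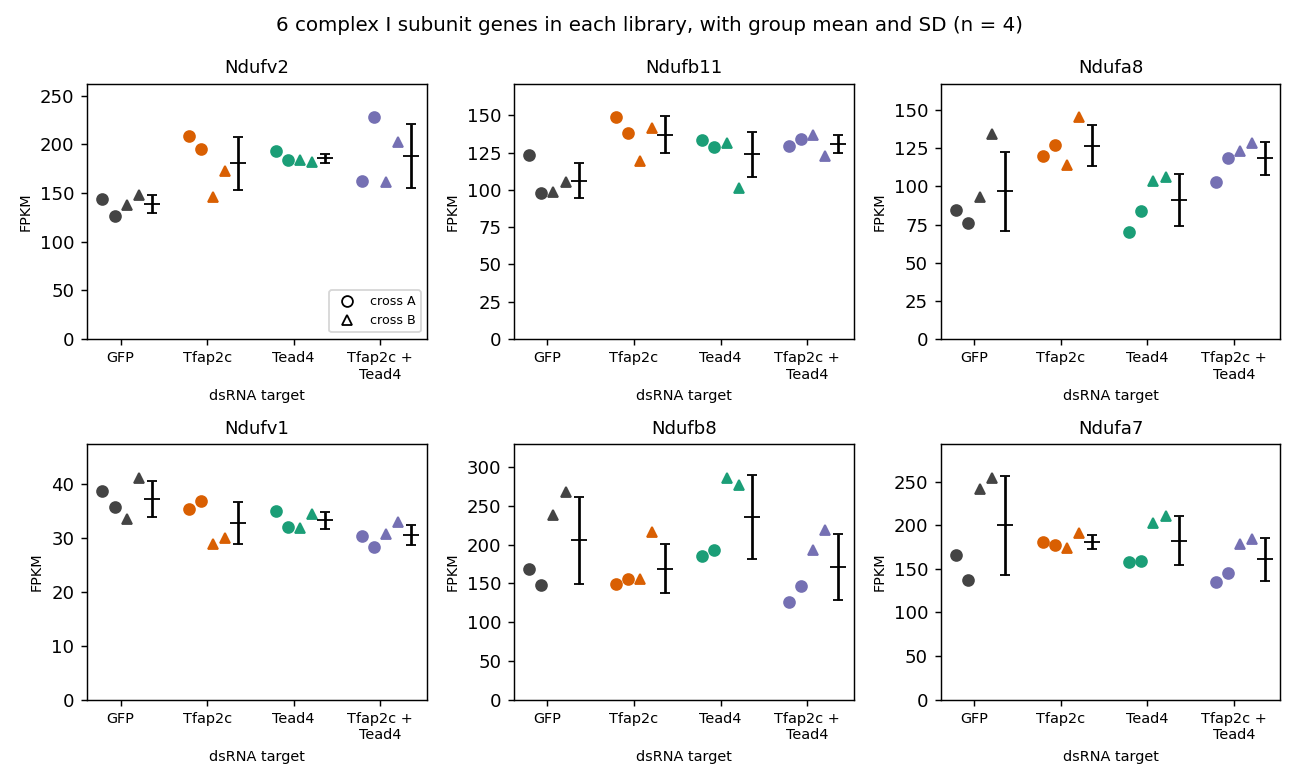
FPKM of 6 complex I subunit genes in each library by dsRNA group, with circles for cross A, triangles for cross B and bars for the group mean and SD (n = 4 libraries). The GFP libraries of Ndufv2 lie at 126 to 148 FPKM, a range that only Tfap2cKD B1 enters, and the 2 crosses separate for Ndufb8 and Ndufa7 within GFP, Tead4KD and DoubleKD.

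In Tead4KD, the only complex I gene to pass was Ndufv2, which rose. This is 2.78% of the 36 genes, against 6.13% of all genes tested. The median log2 change was 0.06 for the 36 genes and 0.05 for all genes. Above 0 were 27 of the 36 genes and 6853 of all 11422. Median-ratio rescaling turned the median of the 36 to -0.01, with 16 above 0. Ndufv2 was listed at 193, 184, 184 and 182 FPKM in Tead4KD, all above the GFP values given earlier. Its mean was 186 ± 5.02 FPKM (SD, n = 4) and its log2 change 0.42 ± 0.12 (SE, limma adjusted p = 0.0463). The groups did not overlap for 1 of the 36 genes, against 9.67% of all genes. The p ranged from 0.0304 to 0.124 without single libraries, and the call was lost without any 1 of the 4 GFP libraries, any 1 of the 4 Tead4KD libraries, or Tfap2cKD library A2 or B2. It was lost too with no filter (0.104), with no term for cross (0.1002), with replicate number as a block (0.0576) and under median-ratio rescaling (0.0834), which also turned the split of all genes from 3.35% higher and 2.78% lower to 2.29% and 3.68%.

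In DoubleKD, Ndufv2 and Ndufb11 rose and Ndufv1 fell. These 3 genes are 8.33% of the 36, against 25.1% of all genes tested, of which 13.9% rose and 11.3% fell. At an unadjusted p under 0.05, 10 of the 36 passed (27.8%), against 36.6% of all genes. The median log2 change was 0.04 against 0.05 for all genes. Above 0 were 19 of the 36 genes and 6360 of all 11422. Without GFP library A2 the median of the 36 was -0.12. Median-ratio rescaling turned it to -0.02, with 1 gene higher and 3 lower and with 11.5% of all genes higher and 13.7% lower. The count of calls was 0 without DoubleKD library A2, 1 without DoubleKD library B1 and 5 without Tfap2cKD library B1.

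Ndufv2 was listed at 162, 228, 161 and 202 FPKM in DoubleKD, again all above GFP, with A1 and B1 nearest to it. Its DoubleKD mean was 188 ± 32.9 FPKM (SD, n = 4) and the log2 change 0.42 ± 0.12 (SE, limma adjusted p = 0.0148). Ndufb11 was listed at 129, 134, 137 and 123 FPKM, of which B2 was just under the highest GFP value, with a mean of 131 ± 6.24 FPKM and a log2 change of 0.30 ± 0.09 (SE, limma adjusted p = 0.0303). The call on Ndufv2 was lost without GFP library A2 or DoubleKD library A2, and that on Ndufb11 without GFP library A2 or B1 or DoubleKD library A2 or B1. That on Ndufb11 was also lost under median-ratio rescaling (0.0768), with no term for cross (0.0655) and with no filter (0.0571). In Tead4KD, Ndufb11 was listed at 133, 129, 132 and 102 FPKM, with B2 inside the GFP range, and did not pass (log2 change 0.22, limma adjusted p = 0.205).

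Ndufv1 (chr19:4007499-4012755, GRCm38.p6) encodes the flavin-binding partner of Ndufv2, where NADH gives up its electrons. Its values were 38.7, 35.7, 33.6 and 41.2 FPKM in GFP and 30.3, 28.4, 30.7 and 32.96 FPKM in DoubleKD, with every DoubleKD value below every GFP value. In Tfap2cKD they were 35.5, 36.9, 28.96 and 30.1 and in Tead4KD 35.00, 32.1, 31.9 and 34.4. The DoubleKD mean was 30.6 ± 1.87 FPKM against 37.3 ± 3.35 in GFP (SD, n = 4), and the log2 change was -0.28 ± 0.10 (SE, limma adjusted p = 0.0454). The call was lost in 11 of the 16 fits that left out a single library, where p ranged from 0.0345 to 0.147: those without GFP A1, A2 or B2, Tfap2cKD B2, any 1 Tead4KD library, or DoubleKD A1, A2 or B1. It was lost too with no filter (0.0616), with no term for cross (0.076) and with replicate number as a block (0.0504). In all 3 knockdowns the 2 partners had fitted changes of opposite sign, 0.37 and -0.18 in Tfap2cKD, 0.42 and -0.16 in Tead4KD and 0.42 and -0.28 in DoubleKD, although Ndufv1 passed only in DoubleKD and the 3 comparisons share the GFP libraries.

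DoubleKD and GFP did not overlap for 6 of the 36 genes, against 20.6% of all genes tested. Ndufc1, Ndufc2 and Ndufv2 were higher in every DoubleKD library and Ndufs7, Ndufb9 and Ndufv1 lower, and they were named after their values were seen. Ndufs7 was listed at 152, 148, 165 and 163 FPKM in DoubleKD and 212, 171, 194 and 204 in GFP, with a log2 change of -0.31 (limma adjusted p = 0.12). Ndufb9, a distal membrane arm subunit, was listed at 124, 128, 111 and 126 FPKM in DoubleKD and 152, 134, 151 and 134 in GFP, with a log2 change of -0.22 (limma adjusted p = 0.151). In Tfap2cKD no complex I gene was without overlap with GFP, against 22.1% of all genes.

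Adding Tead4 dsRNA to Tfap2c dsRNA left no difference that passed. Between DoubleKD and Tfap2cKD, 0 of the 36 genes passed in limma, against 0.14% of all genes, 0.035% higher and 0.105% lower. At an unadjusted p under 0.05 these shares were 0 of 36 and 9.52%. The lowest and highest fitted differences were -0.27 for Ndufa1 (95% interval -0.71 to 0.18) and 0.17 for Ndufs4 (95% interval -0.08 to 0.43). The non-additive part, which is the DoubleKD change minus both single changes, passed for 0 of the 36 genes in limma, against 0.753% of all genes. At an unadjusted p under 0.05, 1 of the 36 passed (2.78%), against 12% of all genes. Its median was -0.09 for the 36 genes and -0.06 for all genes.

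Adding Tfap2c dsRNA to Tead4 dsRNA gave 2 genes that were higher, Ndufa8 and Ndufc1, and 2 that were lower, Ndufb8 and Ndufb10. These are 11.1% of the 36 genes, against 23.7% of all genes tested. The median log2 difference of the 36 was -0.08. The count was 1 without DoubleKD library A2 or B1, and 2 without Tead4KD library A2, B1 or B2 or DoubleKD library A1 or B2.

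Ndufb8 (chr19:44548571-44555442, GRCm38.p6) encodes a distal membrane arm subunit. It was listed at 185, 193, 286 and 278 FPKM in Tead4KD and 126, 147, 193 and 219 FPKM in DoubleKD, and within each cross all DoubleKD values lay below all Tead4KD values. The log2 difference was -0.46 ± 0.11 (SE, limma adjusted p = 0.00623), and p ran from 0.000486 to 0.0242 without single libraries. With no term for cross it was 0.183. Ndufa8 was listed at 70.1, 84.1, 103 and 106 FPKM in Tead4KD and 103, 119, 123 and 128 FPKM in DoubleKD, with a log2 difference of 0.39 ± 0.13 (SE, limma adjusted p = 0.036). The 2 groups overlapped across crosses and not within them. This call was lost without any 1 DoubleKD library or Tead4KD library A1, A2 or B1, with no term for cross (0.132) and with no filter (0.0823).

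For Ndufc1, whose values stand above, the difference was 0.28 ± 0.09 (SE, limma adjusted p = 0.0279), and Tead4KD library B1 lay inside the DoubleKD range. The call was lost without Tead4KD library A2 or B2 or DoubleKD library A2 or B1, and with no filter (0.0536). Ndufb10, a subunit on the outer face of the membrane arm, was listed at 95.01, 89.7, 104 and 105 FPKM in Tead4KD and 78.7, 84.2, 70.6 and 65.5 FPKM in DoubleKD, with no overlap and a difference of -0.40 ± 0.14 (SE, limma adjusted p = 0.0465). Its call was lost in 11 of the 16 fits without a single library: GFP A1, B1 or B2, Tfap2cKD A2 or B2, Tead4KD B1 or B2, or any 1 DoubleKD library. It was lost too with no term for cross (0.0984), no filter (0.102), quantile normalization (0.0733) and the replicate block (0.0675).

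More complex I genes passed the test between the 2 crosses than in any knockdown, but these tests differ in precision. The cross test set 8 libraries against 8, and each knockdown test 4 against 4. For Ndufv2 the SE was 0.08 between crosses and 0.12 in DoubleKD against GFP. The counts therefore do not rank the size of the differences. Between the 8 libraries of cross B and the 8 of cross A, 5 of the 36 genes were higher in cross B and 3 lower, which is 22.2%, against 33.5% of all genes tested. Cross stands for all that the libraries of a cross shared, and the mothers' strain cannot be told apart from anything else they shared. Higher in cross B were Ndufb8, Ndufa7, Ndufa13, Ndufa8 and Ndufb2, and lower were Ndufa2, Ndufa3 and Ndufs3. The 5 higher genes passed without each single library, as did Ndufa2 and Ndufs3. The count rose from 8 to 11 without GFP library A2.

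Ndufb8 ran from 126 to 193 FPKM with a median of 152 in cross A and from 156 to 286 FPKM with a median of 229 in cross B. In GFP it was listed at 169, 148, 238 and 268 FPKM and in Tfap2cKD at 149, 156, 156 and 216 FPKM. Its crosses overlapped only through Tfap2cKD library B1 and DoubleKD library B1, and the log2 difference was 0.53 ± 0.08 (SE, limma adjusted p = 0.000157). Ndufa7 ran from 134 to 181 FPKM with a median of 158 in cross A and from 173 to 255 FPKM with a median of 197 in cross B, a difference of 0.37 ± 0.08 (SE, limma adjusted p = 0.00232). In the GFP libraries Ndufa7 was listed at 166, 138, 242 and 255 FPKM, and in Tfap2cKD at 181, 177, 173 and 192, so that the gap between crosses was wide in GFP and nearly closed in Tfap2cKD. In Tead4KD it was listed at 157, 159, 203 and 210.3 and in DoubleKD at 134, 146, 179 and 184.

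Ndufa13, also known as Grim19, ran from 29.8 to 42.6 FPKM with a median of 35.3 in cross A and from 35.7 to 51.5 FPKM with a median of 41.8 in cross B (log2 difference 0.30, limma adjusted p = 0.013). By library it was listed at 35.2, 29.8, 40.5 and 41.8 FPKM in GFP, 42.6, 36.7, 35.7 and 39.9 in Tfap2cKD, 36.9, 32.05, 51.5 and 48.1 in Tead4KD and 30.7, 35.3, 46.00 and 41.8 in DoubleKD, so the cross B values stood above the cross A values in GFP, Tead4KD and DoubleKD. It shares 375 bases with Tssk6 in the annotation. Ndufb2, a small distal subunit, ran from 112 to 171 FPKM with a median of 137 in cross A and from 133 to 190.1 FPKM with a median of 173 in cross B (log2 difference 0.29, limma adjusted p = 0.0211). The same gene had 150.5, 112, 190.1 and 186 FPKM in GFP, 171, 126, 133 and 164 in Tfap2cKD, 158, 142, 179 and 179 in Tead4KD and 125, 131, 167 and 159.7 in DoubleKD, with the 2 crosses apart in all groups but Tfap2cKD. Ndufa8 ran from 70.1 to 127 FPKM with a median of 93.7 and from 92.8 to 146 FPKM with a median of 119 in crosses A and B (log2 difference 0.29, limma adjusted p = 0.0217). For all 3 the crosses overlapped over the 8 libraries of each. With no filter, Ndufb2 (0.0514) and Ndufa8 (0.0516) did not pass.

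Of the genes lower in cross B, Ndufa2, an accessory subunit of the peripheral arm, ran from 84.1 to 115 FPKM with a median of 107 in cross A and from 76.2 to 104 FPKM with a median of 84.2 in cross B (log2 difference -0.27, limma adjusted p = 0.0154). Its values were 101, 84.1, 93.99 and 104 FPKM in GFP, 115, 112, 76.2 and 86.2 in Tfap2cKD, 109, 106, 83.6 and 79.7 in Tead4KD and 99.5, 107, 84.4 and 83.9 in DoubleKD, and the 2 crosses overlapped only in GFP. Ndufs3, a core subunit of the part that binds ubiquinone, ran from 136 to 174 FPKM with a median of 156 and from 119.6 to 152 FPKM with a median of 134 in crosses A and B (log2 difference -0.19, limma adjusted p = 0.0186). Its values were 136, 149.8, 131 and 138 FPKM in GFP, 174, 158, 119.6 and 135 in Tfap2cKD, 144, 156, 152 and 135 in Tead4KD and 156, 157, 133 and 132 in DoubleKD, a narrow range in which the highest stood in Tfap2cKD A1 and the lowest in Tfap2cKD B1. Ndufa3, a small membrane arm subunit, ran from 39.02 to 73.9 FPKM with a median of 50.6 and from 29.5 to 48.7 FPKM with a median of 39.6 (log2 difference -0.37, limma adjusted p = 0.041). Its values were 49.2, 41.2, 42.6 and 48.7 FPKM in GFP, 73.9, 45.9, 29.5 and 46.6 in Tfap2cKD, 51.97, 51.9, 38.2 and 34.6 in Tead4KD and 52.4, 39.02, 29.9 and 41.1 in DoubleKD, with Tfap2cKD A1 above all others. The call on Ndufa3 was lost with no filter (0.0966) and in 10 of the 16 fits without a single library: GFP A1 or B1, Tfap2cKD A1 or B1, any 1 Tead4KD library, or DoubleKD A1 or B1. All 3 genes overlapped between crosses.

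Some of the complex I transcripts encoded by mitochondrial DNA differed between crosses as well. The 7 mt-Nd genes summed to between 20853 and 24979.7 FPKM in cross A, with a median of 23319, and to between 14620.3 and 19209 FPKM in cross B, with a median of 17463, with no overlap. Of these 7 genes, mt-Nd1, mt-Nd4, mt-Nd4l and mt-Nd5 were lower in cross B, by log2 differences of -0.60, -0.55, -0.60 and -0.40 (limma adjusted p from 3.6e-06 to 0.000112). The differences of mt-Nd2, mt-Nd3 and mt-Nd6 were -0.03, 0.01 and -0.11 and did not pass. None of the 7 passed in a knockdown against GFP. The median difference of the 36 nuclear genes was -0.03.

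After Tfap2c dsRNA most complex I genes had values above GFP in cross A and below GFP in cross B, although no single gene passed the test of that difference. Within cross A, 32 of the 36 genes had a value above 0 for Tfap2cKD minus GFP, with a median log2 change of 0.23. Within cross B, 30 of the 36 were below 0, with a median of -0.25. Over all genes tested the medians were 0.09 and 0.02. In the fit with an interaction between group and cross, all 36 genes had a lower fitted change in cross B, with a median difference of -0.51, whereas 56.2% of all genes lay below 0, with a median of -0.07. By limma, 0 of the 36 genes passed an adjusted p under 0.05, as did 0 of all genes, and 21 of the 36 had an unadjusted p under 0.05, against 16.5% of all genes. With the filter at 5 FPKM, 1 of the 36 passed. The share of all genes under that filter is not given here, so this call cannot be set against it. The pattern was not particular to complex I. Of the 45 tested nuclear genes of complexes II to V, 43 lay below 0 and 2 above, with a median interaction of -0.44. By limma, 24 of these 45 (53.3%) had an unadjusted p under 0.05, and 0 passed after adjustment.

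The lowest adjusted p was that of Ndufa7, 0.0691, for a difference of -0.68 ± 0.14 (SE). Its change was 0.24 within cross A and -0.44 within cross B. Ndufb10 followed with -0.64 ± 0.15 (SE, limma adjusted p = 0.0881), from 92.9, 81.2, 84.9 and 86.5 FPKM in GFP and 94.8, 84.8, 52.3 and 60.3 in Tfap2cKD, where both cross B libraries were the lowest of all 16. Ndufs7 changed by -0.07 within cross A and -0.70 within cross B, and was listed at 189, 175, 106 and 142 FPKM in Tfap2cKD. Its difference of -0.63 had a limma adjusted p of 0.165. Near 0 were Ndufc1, at -0.01, and Ndufb11, at -0.04, and the change of Ndufb11 after Tfap2c dsRNA came to 0.38 within cross A and 0.35 within cross B.

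The difference between crosses rested on 4 GFP and 4 Tfap2cKD libraries, 2 in each cross, and the libraries did not contribute alike. The median of the 36 genes, each taken relative to its own mean over the 16 libraries, was -0.22 in GFP library A2 and -0.26 in Tfap2cKD library B1, and 0.19 in Tfap2cKD library A1 and 0.14 in GFP library B2. In GFP A2, 4 of the 36 genes lay above their own mean, in Tfap2cKD B1 3, and in Tfap2cKD A1 35. The other 12 libraries had medians from -0.08 to 0.09. Left out in turn, GFP A2, Tfap2cKD A1 and Tfap2cKD B1 reduced the median interaction to -0.35, -0.37 and -0.36, and over all such fits it ran from -0.64 to -0.35. It was -0.44 with 34 of 36 below 0 under median-ratio rescaling and -0.36 with 33 of 36 below 0 under quantile normalization.

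**Figure D4:**
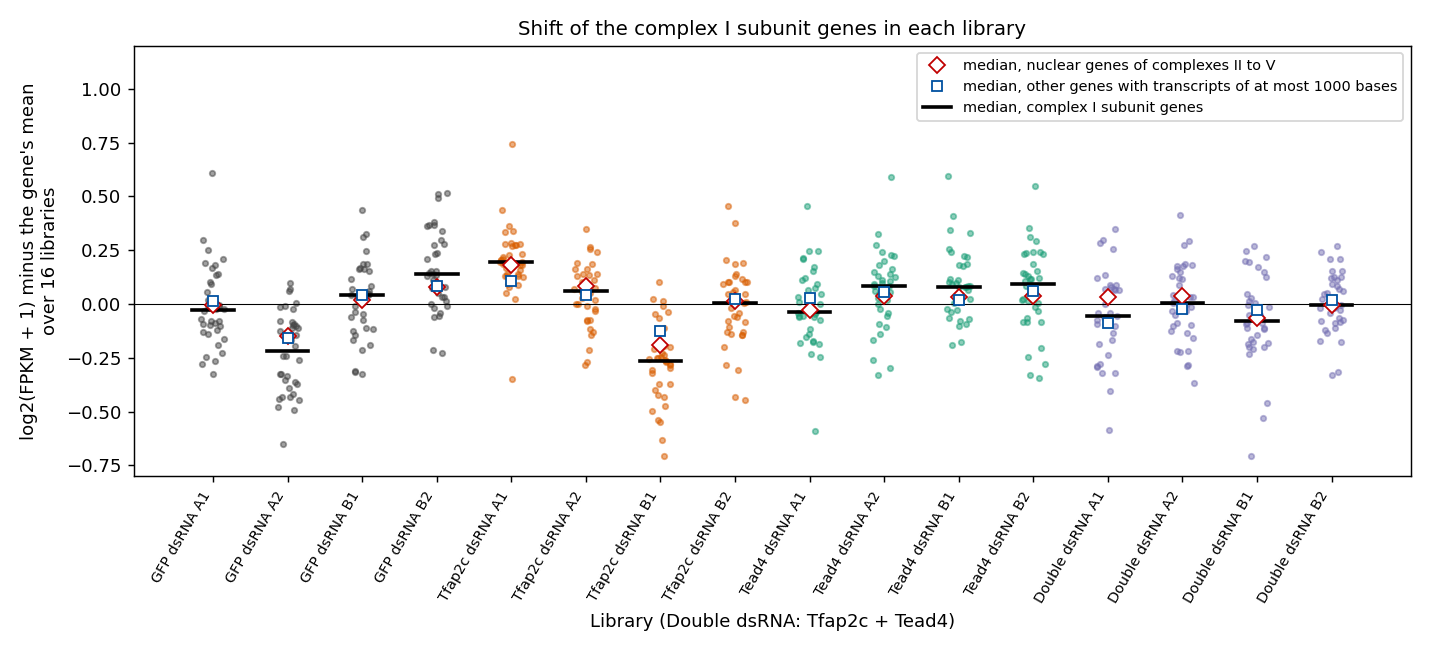
Each point is a complex I gene in a library, as log2(FPKM + 1) minus the gene's mean over the 16 libraries, with the black bar at the median of the 36 genes, the diamond at the median of the nuclear genes of complexes II to V and the square at the median of other genes with short transcripts. The bars are lowest in Tfap2cKD B1 (-0.26) and GFP A2 (-0.22) and highest in Tfap2cKD A1 (0.19), and the diamonds and squares move the same way in these 3 libraries.

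Other genes moved with the complex I genes in these libraries. The 45 tested nuclear genes of complexes II to V had medians of -0.15 in GFP A2, -0.19 in Tfap2cKD B1 and 0.18 in Tfap2cKD A1. The 920 other tested genes whose longest transcript has at most 1000 bases had -0.16, -0.13 and 0.10, while the medians of all genes tested lay between -0.07 and 0.06 in the 16 libraries. Within cross A, the Tfap2cKD change had a median of 0.21 for complexes II to V and 0.16 for the other short transcripts, and within cross B of -0.15 and -0.10. Complex I genes have short transcripts themselves, with a median of 967 bases for the longest transcript against 2664 bases for the tested genes that have a length (83.5% of them), and 20 of the 36 are of at most 1000 bases. In Tfap2cKD B1 the median was -0.28 for these 20 and -0.26 for the 16 longer ones. The part of transcript length in the shift was not tested.

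For Tead4KD and DoubleKD the medians of the 2 crosses lay closer together. Within cross A, 28 of the 36 genes were above 0 in Tead4KD, with a median of 0.16, and within cross B 17 were, with a median of -0.03. In DoubleKD, 23 were above 0 in cross A, with a median of 0.11, and 23 below 0 in cross B, with a median of -0.15. Over all genes tested the medians in crosses A and B were 0.07 and 0.05 in Tead4KD, and 0.07 and 0.002 in DoubleKD. The median interaction of the 36 genes was -0.13 in Tead4KD and -0.19 in DoubleKD. It was -0.12 and -0.18 for the nuclear genes of complexes II to V, and -0.02 and -0.06 for all genes. By limma 0 of the 36 genes and 0 of all genes passed in either, and 5 of the 36 (13.9%) had an unadjusted p under 0.05 in each, against 6.98% of all genes in Tead4KD and 11.2% in DoubleKD. The same 4 GFP libraries enter all 3 interactions.

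Complex I genes varied together from library to library. Taking each gene's deviation from its group mean, the median Pearson correlation over the 630 pairs of the 36 genes and 16 libraries was 0.42, and 556 pairs were above 0. In the 990 pairs of the 45 genes of complexes II to V it was 0.34, with 742 above 0. The points of each correlation share libraries and their depth, so the values are descriptions. Deviations from the group mean also keep the differences between crosses and the library shifts given above. Such correlations were not computed for other genes. Against the median of the other 35 genes, Ndufa11, Ndufb4 and Ndufs5 followed most closely (r = 0.873, 0.872 and 0.843). Ndufc1, Ndufs1, Ndufb8 and Ndufb11 followed least (0.263, 0.294, 0.327 and 0.338), 27 genes had r above 0.5 and none was below 0.

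Summed over the 36 genes, complex I transcripts took from 3985 FPKM in Tfap2cKD B1 to 5396 FPKM in GFP B2. Group means were 4779 ± 576 FPKM in GFP, 4775 ± 582 in Tfap2cKD, 4954 ± 150.4 in Tead4KD and 4701 ± 177 in DoubleKD (SD, n = 4). The means differed by less than the spread between GFP libraries. Some of these reads may be shared with the annotated pseudogenes Ndufa11b, Ndufa12-ps, Ndufs5-ps and Ndufs6b, and 10 of the 36 genes overlap another gene, so the levels of those named genes are uncertain to that extent.

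In the fits of Tfap2cKD and DoubleKD over both crosses, Ndufab1 and several assembly factor genes changed by more than any of the 36 genes did. Ndufab1, the mitochondrial acyl carrier protein that is also a complex I subunit but falls outside the naming rule, was listed at 119, 115, 127 and 152 FPKM in GFP, 214, 192, 164 and 181 in Tfap2cKD, 137, 135, 151 and 135 in Tead4KD and 202, 191, 167 and 228 in DoubleKD. All Tfap2cKD and DoubleKD values lay above all GFP values. It rose by a log2 change of 0.55 ± 0.11 in Tfap2cKD (SE, limma adjusted p = 0.00203) and 0.61 ± 0.11 in DoubleKD (limma adjusted p = 0.00103).

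Of 15 tested assembly factor genes, 3 rose and 2 fell in Tfap2cKD, 1 rose in Tead4KD, and 3 rose and 1 fell in DoubleKD. These are 33.3%, 6.67% and 26.7% of the list, against 29.6%, 6.13% and 25.1% of all genes. Tmem70, needed for assembly of ATP synthase and of complex I, was listed at 161, 146, 171 and 165 FPKM in GFP and 75.96, 77.3, 125 and 111 FPKM in Tfap2cKD, and fell by 0.75 on the log2 scale (limma adjusted p = 0.00015). Ndufaf6 was listed at 16.03, 14.7, 18.8 and 11.6 FPKM in GFP and 42.8, 32.5, 22.5 and 31.3 in Tfap2cKD, and rose by 1.02 (limma adjusted p = 0.00187). Ecsit, an assembly factor of the membrane arm, was listed at 46.9, 43.6, 23.8 and 21.9 FPKM in GFP and 57.04, 57.1, 47.3 and 61.5 in Tfap2cKD, and rose by 0.77 (limma adjusted p = 0.0018). In DoubleKD the changes were -0.62 for Tmem70, 0.79 for Ndufaf6 and 0.74 for Ecsit, with limma adjusted p of 0.000828, 0.0105 and 0.00266. Between crosses, 2 of the 15 were higher in cross B and 4 lower, which is 40%, against 33.5% of all genes.

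Of 9 tested regulators of mitochondrial genes, Pprc1, a coactivator related to Ppargc1a, rose by 0.48 in Tfap2cKD (limma adjusted p = 0.0326) and Myc fell by 1.06 (0.011 by the same test). Myc was listed at 46.5, 42.3, 58.9 and 49.3 FPKM in GFP and 10.7, 14.6, 47.1 and 36.7 in Tfap2cKD, and the 2 groups did not overlap in cross A or in cross B. None of the 9 passed in Tead4KD, and in DoubleKD Myc was the only gene of the list to pass, at -1.10. The shares of the list that passed were 22.2% in Tfap2cKD, 0% in Tead4KD and 11.1% in DoubleKD. Those of all genes were 29.6%, 6.13% and 25.1%. Among the 45 tested nuclear genes of complexes II to V, 8 rose and 5 fell in Tfap2cKD, 1 rose and 1 fell in Tead4KD, and 7 rose and 6 fell in DoubleKD, which is 28.9%, 4.44% and 28.9% of them. For the 36 complex I genes these shares were 8.33%, 2.78% and 8.33%.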

How the data were processed

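Polyadenylated RNA from 16 pools of embryos was measured, and the values the authors deposited are FPKM; read counts were not used here. CASAVA, Trim Galore, STAR, Cufflinks and the mm10 build are named in the submitters' processing notes, and versions, annotation and strand setting were not given in the sources used here. Of 43496 lines, the 59 that repeated an identifier were summed with it, none of them a complex I gene. Every column of values was assigned to a sample from its title. Log2(FPKM + 1) was computed here from the deposited FPKM, so the log2 values carry the authors' scaling. Genes with 1 FPKM or more in 4 libraries or more were kept. Group and cross were fitted with limma 3.58.1 in R 4.3.3 on all 16 libraries, which share one estimate of spread, and p values are two-sided and Benjamini-Hochberg adjusted over all genes tested, with a threshold of 0.05. A second fit added the interaction of group and cross. The fit was tested on simulated data. Depth is unknown in absolute terms, and the number of pools limits the precision.

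The complex I genes, their grouping by place in the complex and the other gene lists were chosen with earlier results of these data known. Values in every library are given for the 12 genes of lowest adjusted p among those that passed in any comparison, the 3 of highest and the 3 of lowest mean and the 2 of highest coefficient of variation in GFP. The values of 1 of the 36 genes are not reported here, though it is counted in totals and medians. Other genes that are named were chosen after their values were seen. The alternatives were another pseudocount (0.1), no filter or one at 5 FPKM, median-ratio rescaling, quantile normalization, no term for cross, replicate numbers as a block and leaving out each library. Promoter sequences and gene positions are those of RefSeq on GRCm38.p6. Transcript lengths are those of an older annotation on another build and were used without coordinates.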

Additional observations from a re-analysis of the deposited data

Results flagged for a closer look

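In 144 groups of 4 libraries, made of the 36 complex I genes and 4 dsRNA groups, 5 held a library that stood far from the other 3 of its group, by Dixon's criterion at the 95% level, which sets the gap to the nearest library against the group's whole range. Chance flags about 1 in 20 groups. Ndufa1, an X-linked gene of the membrane arm, was listed at 96.4 FPKM in DoubleKD library A1, under 110.1 to 111.1 FPKM in the others. Ndufb11 was at 101.5 FPKM in Tead4KD library B2, under 129 to 133 FPKM. Ndufb8 was at 216 FPKM in Tfap2cKD library B2, above 149 to 156 FPKM. Ndufs4 was at 16.8 FPKM in Tead4KD library A1, under 19.5 to 19.96 FPKM. Ndufv3, an accessory subunit of the NADH-oxidising end, was at 85.4 FPKM in Tfap2cKD library B1, under 124 to 130.4 FPKM, in the library where 33 of the 36 genes lay below their own mean.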

How the results depend on the processing

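Of 19 calls of complex I genes over all comparisons, none reversed, 9 were kept without each single library and 6 under every alternative run for them: Ndufb11 in Tfap2cKD, and Ndufs3, Ndufa2, Ndufb8, Ndufa13 and Ndufa7 between crosses. Besides leaving out libraries, calls between crosses faced 5 alternatives and the other calls 7. Fits with no term for cross or with the replicate block give no difference between crosses. How often the 2 kinds of call were kept is therefore not comparable. Counts of genes that passed were, in Tfap2cKD, 3 as reported, 1 with no filter and 5 under median-ratio rescaling or quantile normalization. In Tead4KD the count fell from 1 to 0 with no filter, under median-ratio rescaling and with no term for cross. In DoubleKD it was 3, 1 with no filter or no term for cross, and 5 under quantile normalization. Between DoubleKD and Tead4KD it was 4, and 1 with no filter or no term for cross. Between crosses it was 8, and 5 with no filter. For the interaction of Tfap2cKD and cross it was 0, and 1 with the filter at 5 FPKM, where the share of all genes is not given here. Without single libraries the counts ran from 1 to 4 in Tfap2cKD, 0 to 1 in Tead4KD, 0 to 5 in DoubleKD, 1 to 5 between DoubleKD and Tead4KD, 7 to 11 between crosses and 0 to 0 for the interaction. Over all alternatives the median log2 change of the 36 genes ran from -0.09 to 0.13 in Tfap2cKD, -0.05 to 0.12 in Tead4KD and -0.12 to 0.09 in DoubleKD, so it had no stable sign. The median interaction of Tfap2cKD and cross ran from -0.64 to -0.35 and was -0.36 under quantile normalization; its alternatives were chosen after seeing the data. The cause of these shifts was not tested.

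No clear pairing of libraries by replicate number was seen, which is a description, as pairing was not tested. Deviations of same-numbered libraries correlated by 0.0321 to 0.308 from the group mean and by -0.165 to 0.176 from the mean of group and cross in 24 pairs. For the mean of group and cross, the 2 libraries mirror each other, so numbers 1 and 2 give the same value and the 24 are not separate. In deviations from the group mean, 0 libraries correlated best with their own number in every group. With the number as a replicate block, 3 genes passed in Tfap2cKD, 0 in Tead4KD, 2 in DoubleKD and 3 between DoubleKD and Tead4KD. No depth behind a value is known, so no counting interval could be given.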
